A study of Zea mays with 36 samples.

Results

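Roots of maize were compared 30 min after nitrate was taken away with roots that had nitrate. Both groups were the inbred line B73 grown in hydroponics for 12 days with sufficient nitrate, under 16 h of light and 8 h of dark. The first group was sampled at 0.5 h of nitrogen deprivation (ND), in which nitrate salts had been replaced, and the second at 0 h under normal nitrogen (NN), with 3 libraries each. Genes entered when they had at least 1 TPM (transcript abundance scaled to 1 fixed total in every library) in at least 3 of these 6 libraries, which kept 24604 of the 43459 genes in the root table. Per the methods of the study a root sample was a mixture of seminal and crown roots. The labels and the methods differ on how many plants were pooled per sample, on the nutrient solution and on the library kit. There was no group kept in nitrate at 0.5 h, so a change with the hour of the day or with the change of solution cannot be told apart from a change with nitrate withdrawal.

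Nitrate is both a nutrient and a signal in roots. It is taken up by NRT1 and NRT2 transporters, reduced to nitrite by nitrate reductase in the cytosol and to ammonium by nitrite reductase in plastids, and built into amino acids by glutamine synthetase and glutamate synthase. Nitrite reductase carries siroheme and receives its electrons from ferredoxin, and the genes for the enzymes, the cofactor and the electron supply are well known targets of the nitrate signal, read by NLP transcription factors.

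The 6 libraries were similar in breadth, with 24160 to 24518 genes at 1 TPM or more and 4.86% to 6.90% of the TPM in the 10 most abundant genes. Because TPM does not retain the number of reads, depth was unknown, and no interval that needs it is given. In bulk tissue, fewer cells of a type and less RNA per cell cannot be told apart. RNA of leaf-specific genes was estimated at 0.580%, 1.16% and 0.236% of its leaf level in the 0.5 h libraries, against 0.219%, 0.239% and 0.327% at 0 h. The 12 leaf markers summed to 78.5, 161 and 54.6 TPM at 0.5 h, against 29.5, 24.6 and 38.8 TPM at 0 h, and in limma 0 of the 8 tested were called and 0 had an unadjusted p under 0.05. With the estimated leaf RNA subtracted, 750 of the calls below were kept. Of the 5 root markers, 4 were tested. Casparian strip membrane protein 5 (Zm00001eb424250), a protein of the endodermis, had 3.98, 4.33 and 3.61 TPM at 0.5 h, against 9.46, 7.30 and 11.5 TPM at 0 h, and it was called lower, a call lost without 0 h replicate 3 or 0.5 h replicate 3. NRT2.5, the marker that did not enter, was near 0 in each of these root libraries. Its leaf means, 0.377 TPM at 0.5 h and 0.314 TPM at 0 h, were higher, so it did not mark root here.

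A gene was called at a limma adjusted p-value under 0.05 together with a log2 fold change beyond 1 in either direction, on log2(TPM + 1). By this rule 757 genes (3.08% of those tested) changed within 30 min, 458 of them higher at 0.5 h (1.86%) and 299 lower (1.22%). The median log2 fold change was 1.35 over the genes called higher and -1.23 over those called lower, against -0.09 over all tested genes. Changes beyond 2 on the log2 scale were found for 59 genes that rose and 20 that fell. The groups overlapped in 36 called genes, 28 of them higher, and in 25 of those 28 the highest 0 h library was replicate 1. Over all tested genes, 5881 (23.9%) were lower at 0.5 h without overlap of the groups, and 3198 were higher without overlap. Under median-of-ratios scaling 532 genes were called higher and 226 lower, so that 70.2% of calls were higher, against 60.5% with TPM as deposited.

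**Figure D1:**
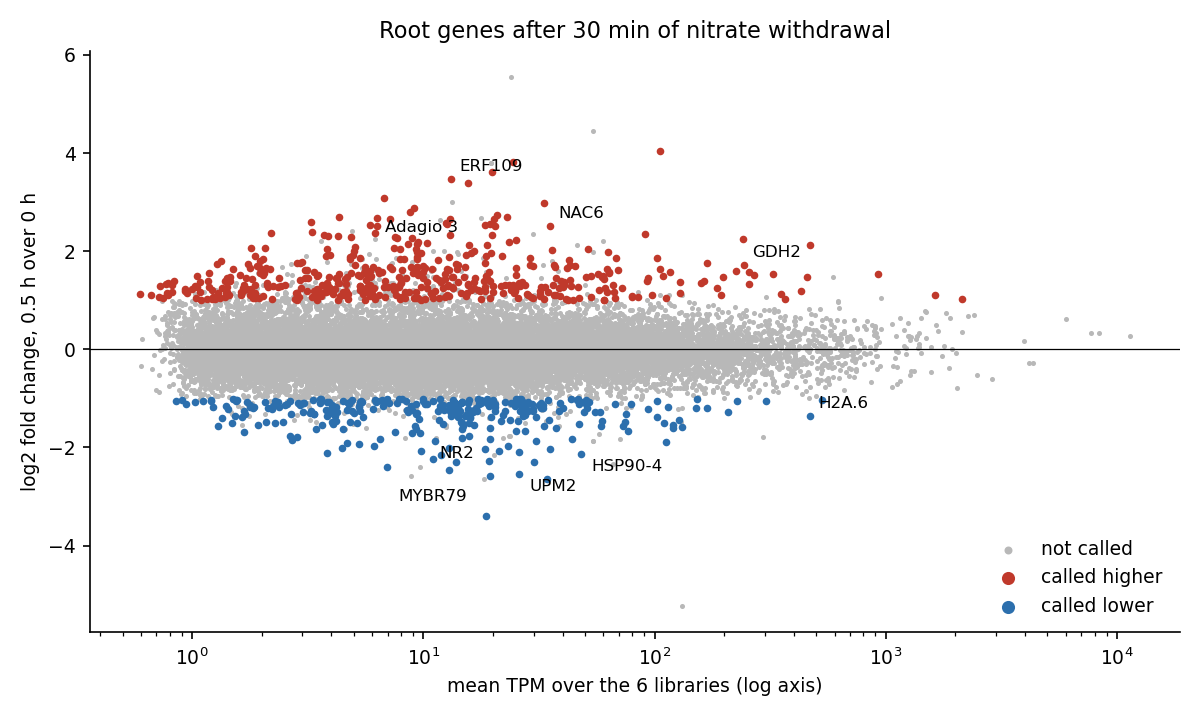
Mean TPM over the 6 libraries (log axis) and log2 fold change of 0.5 h over 0 h for the 24604 tested genes, with the 458 called higher in red and the 299 called lower in blue. Some genes with large fold changes stayed uncalled (grey).

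The libraries did not contribute equally to the genes called higher. In 253 of these 458 genes the highest 0.5 h library was replicate 3, in 256 the lowest was replicate 1, and in 277 the highest 0 h library was replicate 1. The median TPM over these genes was 9.90, 13.6 and 13.9 at 0.5 h, against 4.79, 3.16 and 3.47 at 0 h. Left out in turn, 0 h replicate 1 took the calls to 551 higher and 314 lower, 0 h replicate 2 to 308 and 227, and 0.5 h replicate 3 to 334 and 279.

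The genes of nitrate assimilation moved in 1 direction. The list of the study's network holds 16 of them, of which 13 were tested. All 13 had a negative log2 fold change, with a median of -0.70, 9 were lower without overlap of the groups, and 5 were called lower and 0 higher, a count that was 3 without 0.5 h replicate 3. Among all 24604 tested genes 23.9% were lower without overlap and 1.22% were called lower. All 13 list members stayed negative under both other scalings, median-of-ratios and quantile. The 3 that were not tested, NR3 and both identifiers of GOGAT4, reached 1 TPM in fewer than 3 of the 6 libraries. NR3 had 0.370, 0.349 and 0.293 TPM at 0.5 h, against 1.27, 2.099 and 0.980 TPM at 0 h.

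The nitrate reductase gene NR2 (Zm00001eb256260, chr5:219126568-219130006 on the NAM-5.0 assembly) had 4.15, 7.65 and 8.57 TPM at 0.5 h, against 28.6, 33.6 and 27.95 TPM at 0 h. All of its 0.5 h values lay below its 0 h values, and the log2 fold change was -2.04 with an SE of 0.36 and a limma adjusted p of 0.00168. NR1 (Zm00001eb176470, chr4:58905750-58910788), the second nitrate reductase of the list, had 8.99, 6.15 and 7.68 TPM at 0.5 h, against 19.6, 16.3 and 19.5 TPM at 0 h. It fell as well, by 1.19 on the log2 scale (SE 0.30, adjusted p in limma 0.0143), a call that was lost without 0.5 h replicate 2.

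The largest fall of the list belonged to siroheme synthesis. UPM2 (Zm00001eb159150, chr3:222078417-222082354), a uroporphyrinogen methyltransferase that makes the precursor of siroheme, had 8.49, 7.01 and 5.27 TPM at 0.5 h, against 44.6, 37.7 and 52.1 TPM at 0 h. Its highest 0.5 h library was far below its lowest 0 h library, and its log2 fold change was -2.54 with an SE of 0.35 and a limma adjusted p of 0.000374. UPM1 (Zm00001eb358930, chr8:149732209-149735982), which catalyses the same step, had 12.01, 10.5 and 9.31 TPM at 0.5 h, against 25.1, 24.2 and 23.3 TPM at 0 h. The log2 fold change of UPM1 was -1.12 with an SE of 0.28 and a limma adjusted p of 0.0136, and it was not called without 0.5 h replicate 3.

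Nitrite reductase was represented by a pair of genes. NIR2 (Zm00001eb255880) had 32.3, 33.7 and 26.7 TPM at 0.5 h, against 71.2, 101 and 89.4 TPM at 0 h, which did not overlap, and its log2 fold change was -1.46 with an SE of 0.37 and a limma adjusted p of 0.0157. This call was lost without 0 h replicate 2 and without 0.5 h replicate 3. NIR1 (Zm00001eb193660, chr4:183572704-183576240) had 26.9, 30.5 and 43.6 TPM at 0.5 h, against 52.5, 60.8 and 54.3 TPM at 0 h, again without overlap, but its log2 fold change of -0.74 was not called (adjusted p in limma 0.274).

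Of the genes for the electron supply to nitrite reductase, the list holds RFNR. RFNR (chr1:291928862-291932344), the root ferredoxin reductase, had 246, 272 and 224 TPM at 0.5 h, against 361, 431 and 414 TPM at 0 h and was not called, with a log2 fold change of -0.70 and a limma adjusted p of 0.207. A probable ferredoxin-4 gene (Zm00001eb348290), which is not in the list, had 3.401, 5.09 and 3.75 TPM at 0.5 h, against 21.02, 24.2 and 25.99 TPM at 0 h. All its 0.5 h values lay below its 0 h values, with a log2 fold change of -2.29 with an SE of 0.56 and a limma adjusted p of 0.0123. Other described ferredoxin genes were not called, with log2 fold changes of -0.98 (Zm00001eb083950, ferredoxin-3) and 1.3005 (Zm00001eb260140, ferredoxin-2).

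Downstream of ammonium the differences were smaller. The cytosolic glutamine synthetase genes GS1-1, GS1-3 and GS1-5 had log2 fold changes of -0.36, -0.18 and -0.44, and the glutamate synthase genes GOGAT1, GOGAT2 and GOGAT3 had -0.45, -0.61 and -0.19. None of these 6 genes was called. GOGAT2 had 45.2, 36.6 and 45.6 TPM at 0.5 h, against 52.8, 71.04 and 73.7 TPM at 0 h, without overlap of the groups.

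**Figure D2:**
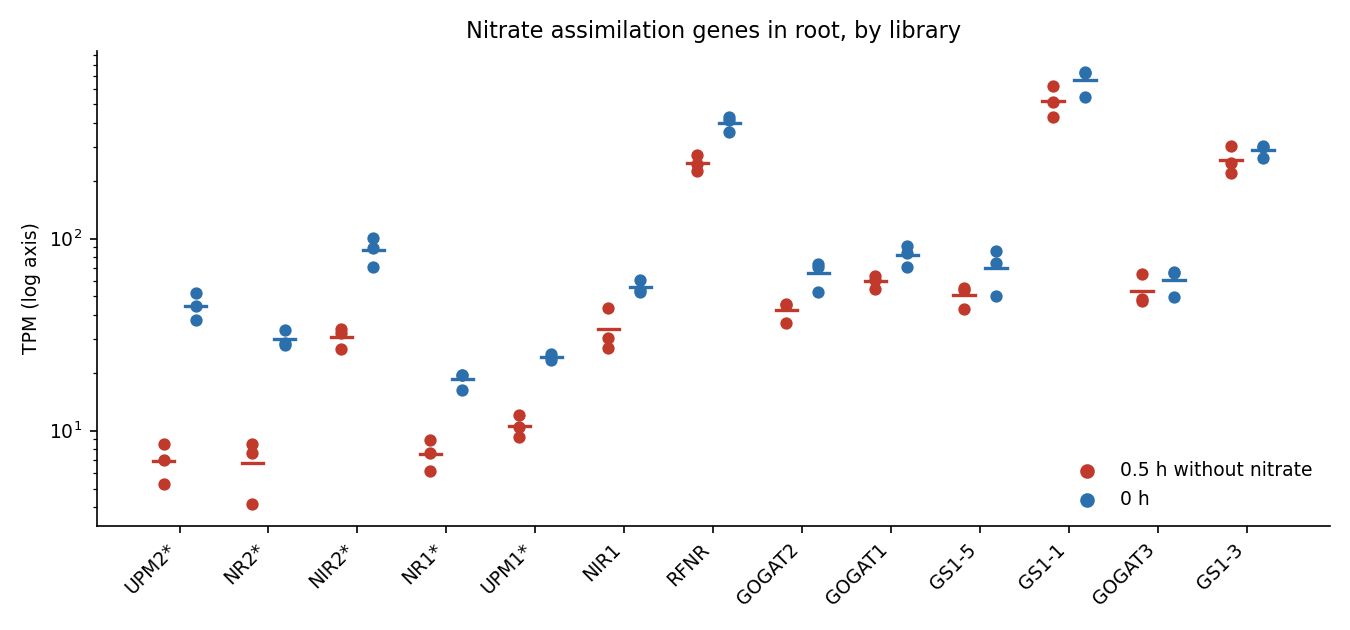
TPM (log axis) of the 13 tested nitrate assimilation genes in each library, 0.5 h in red left of 0 h in blue, with short lines for the means of 3 libraries. Asterisks mark the 5 called genes (UPM2, NR2, NIR2, NR1 and UPM1), in each of which all red points lie below all blue points.

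A glutamate dehydrogenase gene moved the other way. GDH2 (Zm00001eb427810, chr10:136652135-136656152), an enzyme that interconverts glutamate and oxoglutarate, had 305, 358 and 457 TPM at 0.5 h, against 136, 90.2 and 111 TPM at 0 h. The groups were far apart, and GDH2 rose by 1.72 on the log2 scale (SE 0.36, adjusted p in limma 0.00518). GDH1 had 360.5, 364 and 275 TPM at 0.5 h, against 241, 309 and 322 TPM at 0 h, with overlap of the groups, and was not called (log2 fold change 0.20, adjusted p in limma 0.605). GDH2 was the only called gene among the 8 tested genes of amino acid metabolism, whose median log2 fold change was 0.04. AlaAT3 of this list had 64.5, 64.7 and 66.5 TPM at 0.5 h, against 90.8, 96.4 and 101 TPM at 0 h, without overlap. It passed the limit on the p-value (adjusted p in limma 0.00091) but not on the fold (log2 fold change -0.55).

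The transporters of nitrate and ammonium in the network gave no call over the same 30 min. Of the 15 genes of the N transporter list 14 were tested. In limma 0 were called, 3 had an unadjusted p under 0.05, and the median log2 fold change was 0.17. The high-affinity transporter gene NRT2.1 had 1.68, 4.67 and 7.26 TPM at 0.5 h, against 0.733, 1.16 and 1.77 TPM at 0 h. Its groups overlapped, and its log2 fold change of 1.20 had an SE of 1.28 (adjusted p in limma 0.561). NRT2.2, a close copy that may share reads with NRT2.1, had 1.85, 4.95 and 8.74 TPM at 0.5 h, against 0.504, 0.695 and 0.756 TPM at 0 h, without overlap and also uncalled (log2 fold change 1.74, SE 1.15). The SE is shared over all time points of the fit, and both genes varied widely at the later ones.

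Among the other transporters, NRT1.1, the nitrate transporter that in Arabidopsis also acts as a nitrate sensor, had 100.4, 89.9 and 94.6 TPM at 0.5 h, against 68.1, 101 and 87.0 TPM at 0 h, and its groups overlapped. The ammonium transporter gene AMT1.3 had 20.2, 18.4 and 21.04 TPM at 0.5 h, against 33.3, 35.6 and 34.2 TPM at 0 h, all lower at 0.5 h, with a log2 fold change of -0.76 and a limma adjusted p of 0.0749. NPF4.7 passed the limit on the p-value (0.00715) but not on the fold (log2 fold change -0.50), and so did AMF1-2 in the other direction (0.33, adjusted p in limma 0.0268). Outside the list, and named after its values were seen, a gene described as NRT1/PTR FAMILY 8.3 (Zm00001eb251540), of a family that carries nitrate or peptides, had 5.11, 6.53 and 6.61 TPM at 0.5 h, against 3.67, 1.76 and 1.13 TPM at 0 h, without overlap, and rose by 1.22 (adjusted p in limma 0.00983), a call lost without 0 h replicate 3.

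The other processes of the network gave few calls. AUF4, of auxin signalling, had 16.5, 15.5 and 21.9 TPM at 0.5 h, against 8.43, 7.14 and 8.17 TPM at 0 h and rose by 1.08 on the log2 scale (adjusted p in limma 0.00439), a call lost without 0.5 h replicate 3. LOG2, the only listed gene of cytokinin synthesis and named after its values were seen, had 35.4, 77.0 and 71.003 TPM at 0.5 h, against 56.6, 10.4 and 7.62 TPM at 0 h. It was called at a log2 fold change of 1.72 (adjusted p in limma 0.0454) although 0 h replicate 1 lay among the 0.5 h values, and it was not called in 4 of the 6 leave-out fits, in which 1 library was dropped at a time. The lists of carbon metabolism (4 tested), ethylene synthesis (3), stress response (6), enzymes (2), ubiquitination (2) and other N-linked genes (7) had 0 calls each in limma, and 10 of their 24 tested genes had an unadjusted p under 0.05. Some of these genes passed the limit on the adjusted p-value in limma but not on the fold. They were ACS1 (log2 fold change 0.80), PP124 (0.65), DUB (0.61), PP103 (0.37), HAD5 (-0.44) and PGM (-0.71). Among all tested genes 15.5% passed the limit on the adjusted p-value. Over all 63 tested promoter genes 3 were called higher and 5 lower, with a median log2 fold change of -0.12. Of these 63, 24 had an unadjusted p under 0.05 in limma.

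Of the 492 transcription factors (TFs) in the study's clone library 428 were tested, and 29 were called higher and 24 lower, with a median log2 fold change of -0.15. The called TFs were 12.4% of those tested, against 3.08% over all tested genes (1.86% higher and 1.22% lower). TFs inside the network (266 tested) had 23 called higher and 16 called lower, and those outside it (162 tested) had 6 and 8. By family, AP2-EREBP factors had 12 called higher and 2 lower of 53, NAC factors 3 and 4 of 35, MYB factors 3 and 0 of 27, bZIP factors 0 and 3 of 38, and HSF factors 1 and 3 of 8. The 10 tested ARF factors and the 5 tested NLP factors had 0 calls in limma, and the NLP median was -0.46. An unadjusted p under 0.05 was found for 4 and 2 of them, and for 223 of all 428 tested TFs.

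Several factors fell together with the assimilation genes. NAC125 (Zm00001eb201290) had 20.9, 16.8 and 18.7 TPM at 0.5 h, against 60.7, 74.6 and 71.5 TPM at 0 h, and its log2 fold change was -1.82 with an SE of 0.19 and a limma adjusted p of 8.01e-05. LBD39 (Zm00001eb051620), whose Arabidopsis relative is a nitrate-induced repressor of nitrate-responsive genes, was named after its values were seen. It had 20.5, 16.1 and 17.3 TPM at 0.5 h, against 51.3, 60.8 and 57.8 TPM at 0 h, with no overlap and a log2 fold change of -1.604 with an SE of 0.34 and a limma adjusted p of 0.00586. NAC5 (Zm00001eb095110) had 8.99, 15.7 and 10.9 TPM at 0.5 h, against 30.6, 26.05 and 30.5 TPM at 0 h and fell by 1.25 on the log2 scale. The bZIP factor bZIP40, described as bZIP11, a factor tied in Arabidopsis to sugar signalling, had 56.1, 70.7 and 55.7 TPM at 0.5 h, against 149, 191 and 195 TPM at 0 h and fell by 1.53.

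A different NAC gene rose. NAC6 (Zm00001eb212120), which carries the same description as NAC125 and NAC5, had 35.7, 81.5 and 64.1 TPM at 0.5 h, against 15.5, 7.21 and 6.90 TPM at 0 h, all of it above 0 h, with a log2 fold change of 2.51 with an SE of 0.45 and a limma adjusted p of 0.00192. NAC22 had 4.74, 14.9 and 22.05 TPM at 0.5 h, against 2.71, 2.59 and 2.45 TPM at 0 h, with a log2 fold change of 1.84 (adjusted p in limma 0.00441) and the highest value in 0.5 h replicate 3.

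The AP2-EREBP family, which holds the ethylene response and DREB factors, had the most calls of any family. EREB127 (Zm00001eb187190, ERF027) had 6.24, 11.9 and 16.1 TPM at 0.5 h, against 3.18, 0.153 and 0.267 TPM at 0 h, and the log2 fold change was 2.67 with an SE of 0.44 and a limma adjusted p of 0.00116. An ERF109 gene (Zm00001eb193670), whose Arabidopsis namesake responds early to stress and jasmonate, had 4.41, 21.5 and 50.3 TPM at 0.5 h, against 2.61, 0.262 and 0 TPM at 0 h. The values at 0.5 h spread widely but stayed above all 0 h values, with a log2 fold change of 3.47 with an SE of 0.63 and a limma adjusted p of 0.00220. EREB68 had 7.43, 9.05 and 6.07 TPM at 0.5 h, against 2.84, 0.185 and 0.0964 TPM at 0 h, with 0 h replicate 1 the highest of its group.

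A pair of RAP2-10 genes rose with less spread. EREB156 had 42.1, 56.1 and 74.1 TPM at 0.5 h, against 18.7, 17.2 and 14.9 TPM at 0 h (log2 fold change 1.67, adjusted p in limma 0.000114), and EREB122 had 9.93, 6.90 and 12.5 TPM at 0.5 h, against 1.63, 3.22 and 2.18 TPM at 0 h (log2 fold change 1.68, adjusted p in limma 0.000317). Neither pair of groups overlapped. EREB162, described as the repressor RAV2, had 9.08, 14.7 and 22.8 TPM at 0.5 h, against 3.63, 1.39 and 2.09 TPM at 0 h and a log2 fold change of 2.26. An ACC oxidase gene (Zm00001eb277290), for the enzyme that releases ethylene, had 6.53, 10.9 and 10.6 TPM at 0.5 h, against 45.2, 71.6 and 35.8 TPM at 0 h, but its call (adjusted p in limma 0.0399) did not hold in any of the 6 leave-out fits.

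For the remaining genes, groups were formed from the gene descriptions of the study. Such descriptions were at hand for 359 of the 757 called genes, and they exist only because the study itself called those genes, 350 of them in root at 0.5 h and 9 only in leaf or in root at 3 h, so the groups are no independent evidence of a direction. Over all 1346 tested genes with a description 26.7% were called, the share against which the counts of calls per group below stand. Of the 359 called genes with a description 215 were higher and 144 lower. The counts are descriptions, and a gene could fall in more than 1 group.

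Genes of the circadian clock and of CONSTANS-like factors had 15 calls among 18 described genes, 10 higher and 5 lower. In Arabidopsis the MYB-related factors LHY and REVEILLE peak around dawn, and APRR1 and LUX peak later and repress the dawn factors. MYBR79 (Zm00001eb172450), described as LHY, had 7.40, 3.59 and 4.08 TPM at 0.5 h, against 38.6, 32.0 and 31.2 TPM at 0 h, which gave a log2 fold change of -2.58 with an SE of 0.25 and a limma adjusted p of 6.58e-05. Other identifiers described as LHY, Zm00001eb415770 and Zm00001eb415760, had log2 fold changes of -2.09 and -2.03. The study lists them together as lhy1, and they matched the same RefSeq gene, so they may not be separate genes. Both count among the 5 lower calls. MYBR96, described as REVEILLE 7, had 1.04, 0.676 and 0.425 TPM at 0.5 h, against 6.02, 5.74 and 3.196 TPM at 0 h and fell by 1.78.

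The later-phased genes were higher at 0.5 h. An Adagio 3 gene (Zm00001eb113780), whose Arabidopsis namesake is a blue-light receptor of flowering time, had 37.8, 24.7 and 34.0 TPM at 0.5 h, against 3.32, 4.83 and 6.22 TPM at 0 h, which gave a log2 fold change of 2.53 with an SE of 0.22 and a limma adjusted p of 4.31e-05. APRR1 (Zm00001eb247330) had 40.8, 35.1 and 40.4 TPM at 0.5 h, against 4.86, 9.81 and 9.36 TPM at 0 h, and the log2 fold change was 2.19 with an SE of 0.18 and a limma adjusted p of 2.43e-05. In both genes the groups were far apart. LUX genes, named after their values were seen, had log2 fold changes of 1.65 (Zm00001eb139830) and 1.55 (Zm00001eb362240), and COL5 had 17.56, 26.4 and 47.3 TPM at 0.5 h, against 7.54, 7.02 and 6.01 TPM at 0 h with a log2 fold change of 1.89.

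The clock genes differed in their course at the other sampling times. In time order over the 6 sampling times, 0 h first and 48 h last, the means of MYBR79 were 33.9, 5.02, 2.48, 6.64, 5.13 and 12.8 TPM (n = 3 each). The 24 h and 0 h samples, with means of 6.64 and 33.9 TPM, were taken at the same hour by the protocol. What set these levels of MYBR79 apart was not tested. Adagio 3 averaged 4.79, 32.2, 47.99, 19.99, 41.8 and 26.6 TPM at the same 6 times, with the lowest mean at 0 h. In the leaf libraries of the series, MYBR79 had 65.4, 50.9 and 37.9 TPM at 0.5 h, against 343, 336 and 334 TPM at 0 h.

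**Figure D3:**
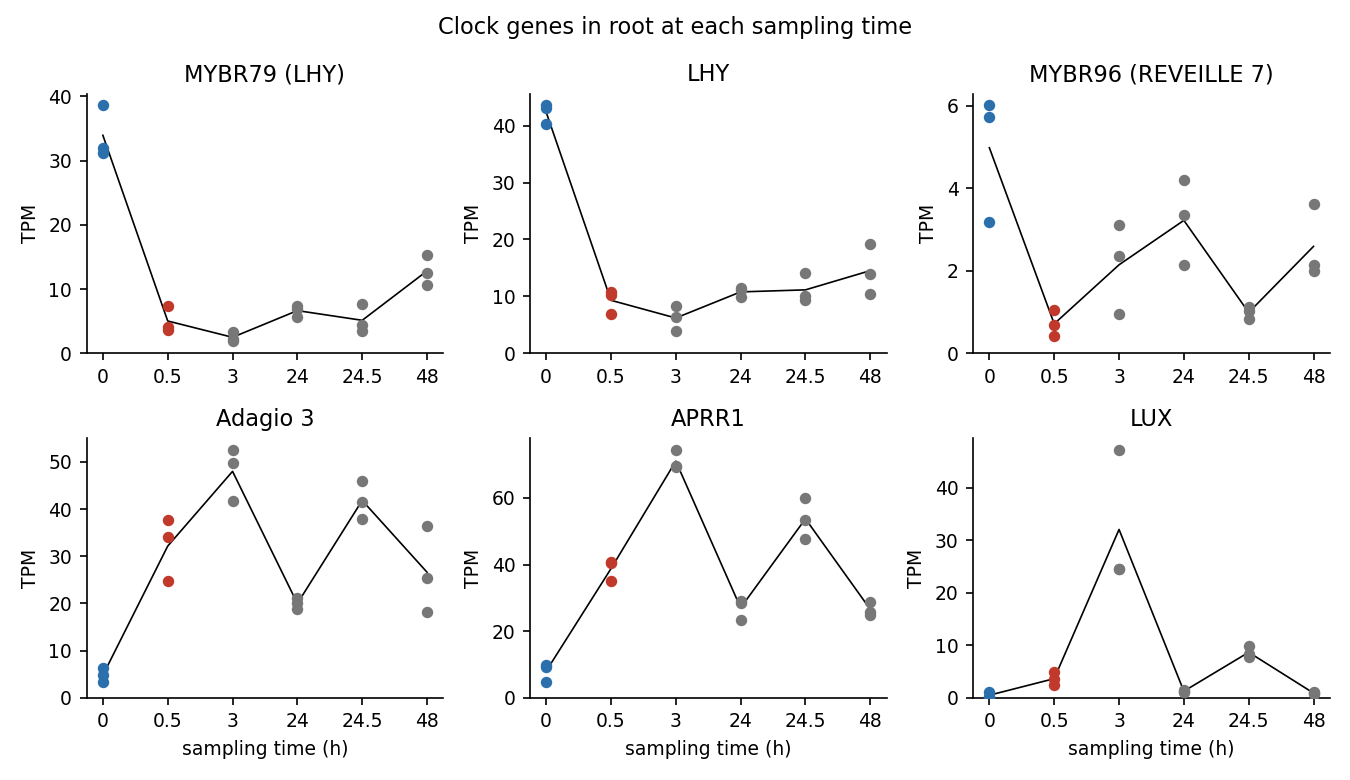
TPM of 6 clock genes in each of the 18 root libraries at the 6 sampling times (0 h blue, 0.5 h red, others grey), with lines through the means of 3 libraries. The LHY and REVEILLE 7 genes have their highest mean at 0 h, and the Adagio 3 and APRR1 genes have their lowest there.

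Heat shock proteins and chaperones, which fold and refold proteins, had 21 calls among 28 described genes, 18 lower and 3 higher. The keywords of this group did not match HSP90-4 (Zm00001eb034130), so these counts leave it out. It had 22.1, 21.2 and 10.5 TPM at 0.5 h, against 78.8, 85.7 and 71.1 TPM at 0 h. The log2 fold change of HSP90-4 was -2.13 with an SE of 0.27 and a limma adjusted p of 0.000241. A small class I heat shock gene (Zm00001eb124940) had 4.54, 2.04 and 3.05 TPM at 0.5 h, against 33.9, 16.3 and 17.7 TPM at 0 h and fell by 2.46, and a copy that may share its reads (Zm00001eb124960) fell by 2.06. ClpB2, a disaggregating chaperone, had 0.395, 0.593 and 0.773 TPM at 0.5 h, against 5.71, 5.27 and 3.41 TPM at 0 h and fell by 1.85. The factors HSF10 and HSF20, both described as B-2a, fell by 1.36 and 1.47. Of the 8 tested HSF factors of the clone library 3 were called lower and 1 higher. In the description group the 3 higher calls were all DnaJ genes.

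Histone genes, which are transcribed mainly while DNA is copied, had 4 calls among 5 described genes, all lower. H2A.6 (Zm00001eb160010) had 289, 225 and 265 TPM at 0.5 h, against 519.7, 691 and 829 TPM at 0 h, which gave a log2 fold change of -1.37 with an SE of 0.19 and a limma adjusted p of 0.00038. H3.2 had 78.9, 62.8 and 67.9 TPM at 0.5 h, against 159.9, 155 and 162 TPM at 0 h, and fell by 1.18 on the log2 scale. H4 had 61.6, 53.6 and 50.8 TPM at 0.5 h, against 103, 146 and 145 TPM at 0 h, and fell by 1.22. H2B.6 had a log2 fold change of -1.24, and it was not called in 5 of the 6 leave-out fits.

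Cell wall genes had 7 calls lower and 2 higher among 26 described. EXORDIUM (Zm00001eb255390), a growth-related wall protein, had 2.81, 2.93 and 3.96 TPM at 0.5 h, against 20.8, 18.3 and 17.3 TPM at 0 h, which gave a log2 fold change of -2.23 with an SE of 0.24 and a limma adjusted p of 0.000114. GALT29A, a galactosyltransferase, had 11.4, 14.8 and 11.6 TPM at 0.5 h, against 31.9, 55.1 and 41.1 TPM at 0 h and fell by 1.66, and a xyloglucan endotransglucosylase gene (Zm00001eb226450) fell by 1.49. A gene labelled MYB36 here (Zm00001eb154560) rose, with 23.1, 30.4 and 32.1 TPM at 0.5 h, against 9.22, 8.99 and 12.5 TPM at 0 h and a log2 fold change of 1.40 (adjusted p in limma 0.0108). Its Arabidopsis namesake is a factor of the endodermis. The study gives the symbol MYB36 to a different gene (Zm00001eb367660).

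Jasmonate genes had 5 calls higher and 0 lower among 11 described. The repressor gene TIFY 10A (ZIM28, Zm00001eb314010) had 26.3, 48.3 and 59.1 TPM at 0.5 h, against 20.9, 11.4 and 7.45 TPM at 0 h, without overlap, and a log2 fold change of 1.72 (adjusted p in limma 0.00510). Cytochrome P450 94B3, which breaks down the active jasmonate, had 11.2, 19.8 and 16.4 TPM at 0.5 h, against 5.71, 3.32 and 3.53 TPM at 0 h and rose by 1.69. A jasmonate methyltransferase gene rose by 1.28, but was not called in 5 of the 6 leave-out fits.

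Genes of abscisic acid and dehydration had 9 calls higher and 0 lower among 16 described. The kinase gene SRK2E (Zm00001eb051510), which acts in abscisic acid signalling, had 28.5, 26.7 and 50.6 TPM at 0.5 h, against 7.59, 7.85 and 9.67 TPM at 0 h, which gave a log2 fold change of 1.90 with an SE of 0.19 and a limma adjusted p of 6.58e-05. A protein phosphatase 2C 48 gene, of a family that holds this pathway in check, had 15.2, 17.7 and 31.9 TPM at 0.5 h, against 9.50, 4.65 and 4.58 TPM at 0 h and rose by 1.64. EREB141, a DREB1B factor of cold and dehydration, had 1.23, 3.56 and 7.42 TPM at 0.5 h, against 0.183, 0 and 0 TPM at 0 h and rose by 2.06. EREB16, a DREB1A factor, had 4.14, 12.4 and 6.04 TPM at 0.5 h, against 5.83, 0 and 0.428 TPM at 0 h, with 0 h replicate 1 among the 0.5 h values, and it was not called in 4 of the 6 leave-out fits.

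The other hormones gave mixed counts. The cytokinin response regulator ARR16, of a type that dampens the cytokinin signal, had 8.73, 6.05 and 6.29 TPM at 0.5 h, against 17.41, 19.6 and 20.8 TPM at 0 h and fell by 1.35. Among 18 auxin genes 3 were called higher and 2 lower. WALLS ARE THIN 1, an auxin transporter of the vacuole in Arabidopsis, had 2.37, 1.995 and 2.51 TPM at 0.5 h, against 11.96, 10.4 and 9.57 TPM at 0 h and fell by 1.82, and an ILR1-like gene for the release of auxin from conjugates had 31.7, 36.998 and 34.0 TPM at 0.5 h, against 13.7, 3.01 and 2.99 TPM at 0 h and rose by 2.51. Gibberellin and GRAS genes had 3 calls higher and 4 lower, with the growth repressor DELLA GAI at 19.2, 20.3 and 21.1 TPM at 0.5 h, against 6.63, 5.36 and 8.02 TPM at 0 h and a call absent from 3 of the 6 leave-out fits.

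In the groups of ubiquitin ligases, WRKY factors, calcium signalling and receptor-like kinases more genes were called higher than lower. That was also so over all called genes with a description (215 higher and 144 lower). Ubiquitin ligases had 13 calls higher and 4 lower among 49 described, with BIG BROTHER (Zm00001eb269300) at 83.7, 89.7 and 148 TPM at 0.5 h, against 44.2, 21.6 and 22.5 TPM at 0 h, which gave a log2 fold change of 1.86 with an SE of 0.26 and a limma adjusted p of 0.000435. WRKY factors had 5 calls higher and 1 lower among 10, and WRKY72 (Zm00001eb337290) had 60.995, 88.5 and 102 TPM at 0.5 h, against 24.3, 16.7 and 16.96 TPM at 0 h and rose by 2.05. Calcium signalling had 7 higher and 5 lower among 24, and receptor-like kinases 5 higher and 1 lower among 29. The share called of receptor-like kinases was below the 26.7% over all described genes. A CML27 calcium-binding gene had 7.13, 19.1 and 40.6 TPM at 0.5 h, against 7.24, 0.993 and 1.08 TPM at 0 h, with 0.5 h replicate 1 just below 0 h replicate 1.

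Sugar and trehalose genes had 6 calls higher and 4 lower among 23. The trehalose-phosphate synthase genes Zm00001eb257510 and Zm00001eb153280 rose by 1.54 and 1.305, the first with 65.7, 82.8 and 108 TPM at 0.5 h, against 26.97, 27.8 and 29.8 TPM at 0 h. SWEET9, a sugar exporter with a close copy that may share its reads, had 15.8, 23.8 and 16.3 TPM at 0.5 h, against 49.2, 59.3 and 46.1 TPM at 0 h and fell by 1.44. Genes of photosynthesis and of the plastid genome had 11 calls higher and 1 lower among 37. They include nuclear copies of plastid genes that may share reads, such as 30S ribosomal protein S3 (Zm00001eb039190), with 15.2, 14.4 and 12.3 TPM at 0.5 h, against 4.77, 3.92 and 3.55 TPM at 0 h. Leaf RNA was more abundant in 0.5 h replicates 1 and 2. With the estimated leaf RNA subtracted, this group had 10 calls higher and 1 lower. The part of leaf RNA in these calls was not tested beyond the subtraction.

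**Figure D4:**
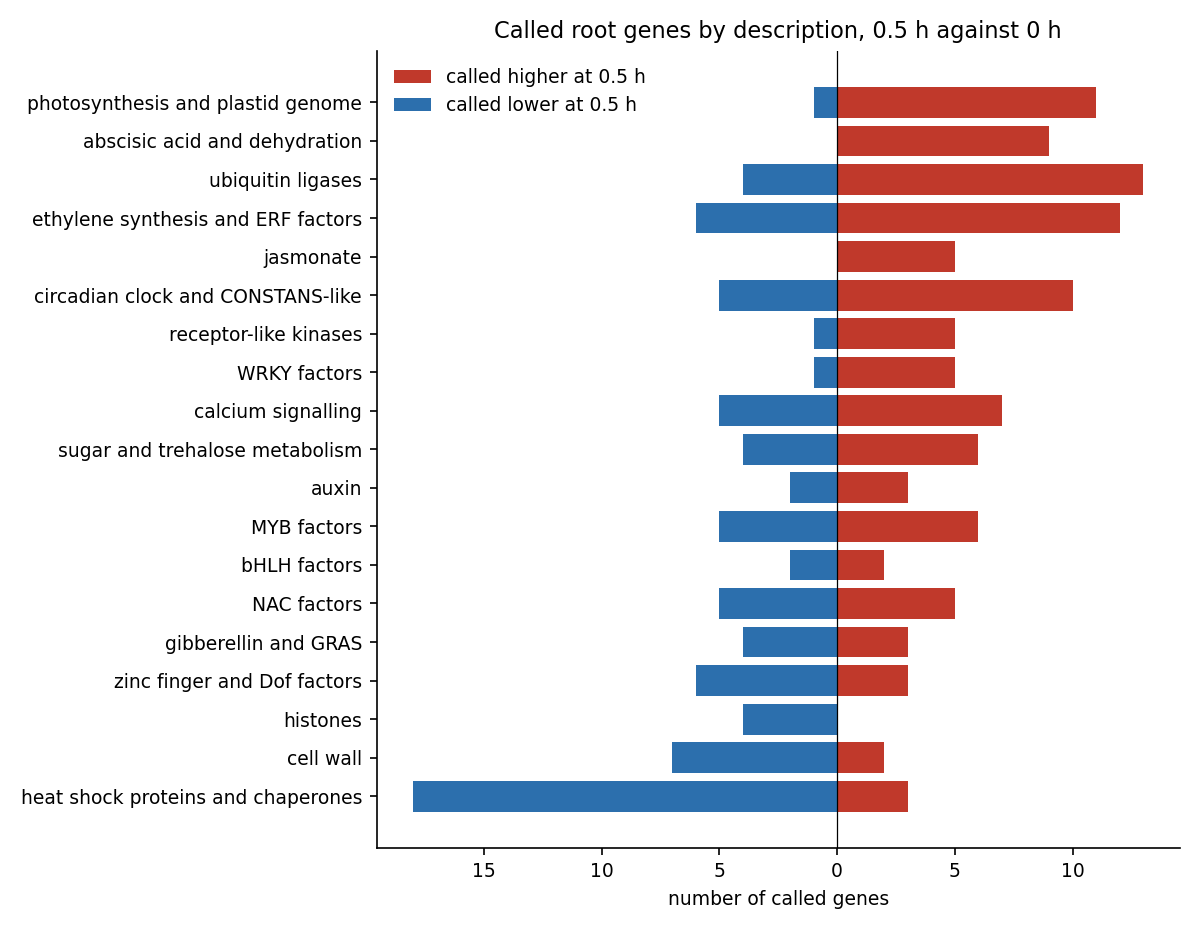
Number of called genes in each description group with at least 4 calls, higher at 0.5 h to the right (red) and lower to the left (blue). Heat shock proteins and chaperones have the most lower calls (18), and ubiquitin ligases the most higher calls (13).

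The largest rise among genes with at least 10 TPM in the higher group and no overlap was Zm00001eb415520, which has no description here. It had 98.6, 273 and 198 TPM at 0.5 h, against 59.9, 3.23 and 3.79 TPM at 0 h, with 0 h replicate 1 far above the other 0 h libraries, and a log2 fold change of 4.03 with an SE of 0.73 and a limma adjusted p of 0.00216. The largest fall was Zm00001eb359070, also without a description, with 0.534, 4.14 and 2.94 TPM at 0.5 h, against 21.2, 53.6 and 29.05 TPM at 0 h and a log2 fold change of -3.399 with an SE of 0.41 and a limma adjusted p of 0.00018. Among described genes outside the groups, CP29B (Zm00001eb110100), a plastid RNA-binding protein, had values that varied little within groups, with 31.6, 31.1 and 38.5 TPM at 0.5 h, against 5.82, 5.50 and 6.46 TPM at 0 h and a log2 fold change of 2.32 with an SE of 0.17 and a limma adjusted p of 1.39e-05.

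Metabolic and transport genes were also among the large rises. A thiamine thiazole synthase gene (Zm00001eb356910), for vitamin synthesis in plastids, had 12.4, 25.5 and 12.7 TPM at 0.5 h, against 0.902, 1.96 and 1.14 TPM at 0 h and rose by 2.88. The aquaporin gene TIP4-1 (Zm00001eb284350) had 14.4, 17.1 and 16.3 TPM at 0.5 h, against 1.74, 1.93 and 5.32 TPM at 0 h and rose by 2.19. In both, no 0 h value reached the 0.5 h values.

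The resupply of nitrate after 24 h gave a second interval of 30 min, 24.5 h against 24 h, which starts at the same hour by the protocol and shares no library with withdrawal. On resupply 735 genes (2.99%) were called higher and 165 (0.671%) lower. Of the 458 genes that rose on withdrawal, 142 also rose on resupply and 4 fell. Of the 299 that fell on withdrawal, 24 also fell on resupply and 14 rose. The difference between the intervals, tested as an interaction in the same limma fit, was called for 1256 genes, 930 with a negative (3.78%) and 326 with a positive difference (1.32%). This split depended on the scaling, with 439 negative and 573 positive under median-of-ratios scaling, and the median difference over all genes was -0.21 with TPM as deposited and -0.02 under that scaling.

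Of the 14 genes called lower on withdrawal and higher on resupply, 4 belonged to the assimilation list. UPM2 had 133, 217 and 142 TPM at 24.5 h, against 34.8, 67.9 and 20.4 TPM at 24 h, so that it rose by 2.102 on resupply, a difference of -4.64 (adjusted p in limma 0.000372). NR2 changed by 1.88 on resupply, a difference of -3.92 (adjusted p in limma 0.000578). NAC125 had 44.6, 72.5 and 69.7 TPM at 24.5 h, against 24.6, 28.6 and 24.5 TPM at 24 h, a difference of -3.02 (adjusted p in limma 4.94e-05). Over the assimilation list 8 differences were called, 6 under either other scaling (without GOGAT2 and GOGAT3), and 5 genes were called higher on resupply. The negative differences of UPM2, NR2 and NAC125 were also called under both other scalings. Since these genes had opposite calls in the same fit, a large difference followed and is no further evidence.

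Other genes moved the same way in both intervals. HSP90-4 fell in both, by 2.13 on withdrawal and with a log2 fold change of -3.23 on resupply, and its means in time order were 78.5, 17.9, 73.1, 76.4, 7.67 and 64.7 TPM. EREB127 rose in both, with log2 fold changes of 2.67 and 3.28, and averaged 0.0712 TPM at 3 h and 0.0419 TPM at 24 h. GDH2 had 1.72 and 1.94, and TIFY 10A had 1.72 and 1.52. With TPM as deposited the difference between the intervals was not called for these 4 genes, which does not show that the changes were equal. That of HSP90-4 was 1.095 (adjusted p in limma 0.061), and it was called under the other scalings, at 1.301 (0.0345) with median-of-ratios and 1.25 (0.0468) with quantile.

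A further set changed on withdrawal with a called difference and little change on resupply. MYBR79 had a log2 fold change of -0.37 on resupply (difference -2.21, adjusted p in limma 0.00171), EXORDIUM 0.43 (difference -2.66, adjusted p in limma 0.000574) and H3.2 0.03 (difference -1.21, adjusted p in limma 0.00304). Under median-of-ratios scaling the difference of H3.2 was -0.99 and was not called. EREB122 had -0.00 on resupply and a difference of 1.68 (adjusted p in limma 0.00350). MYBR79 and EXORDIUM were still low at 24 h, at 6.64 and 2.84 TPM, so both intervals did not start from the same level.

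**Figure D5:**
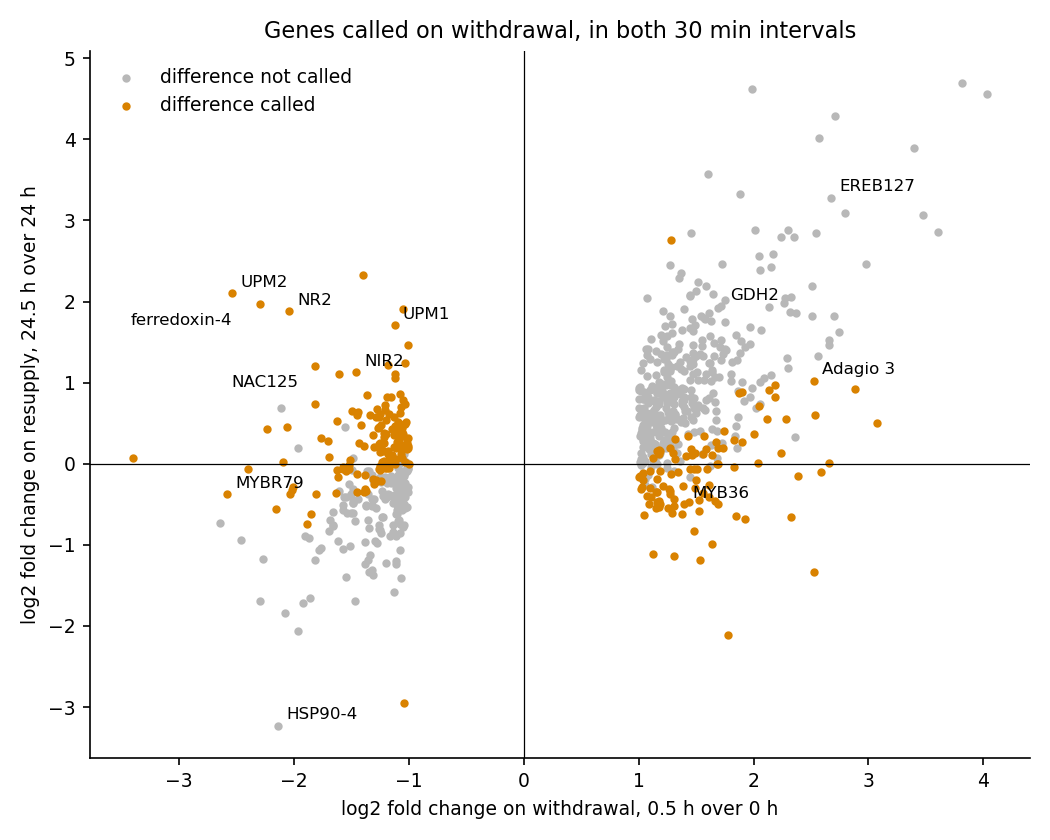
Log2 fold change on withdrawal (0.5 h over 0 h) and on resupply (24.5 h over 24 h) for the 757 genes called on withdrawal, in orange where the difference was called with TPM as deposited. UPM2, NR2, ferredoxin-4, NAC125, NIR2 and UPM1 lie at the upper left (lower on withdrawal, higher on resupply), and HSP90-4 lies at the lower left.

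The longer deprivation samples are given side by side, since their comparisons share the 0 h libraries. NIR2 averaged 30.9 ± 3.74 TPM at 0.5 h and 15.2 TPM at 3 h, ferredoxin-4 4.08 ± 0.892 and 2.02 TPM, and LBD39 17.99 ± 2.26 and 24.4 TPM (SD, n = 3). NR2 averaged 2.62 TPM at 3 h, below its level at 0.5 h, whereas UPM2 averaged 15.2 TPM, above it. ERF109 averaged 25.4 ± 23.2 TPM at 0.5 h and 0.381 TPM at 3 h, and NAC6 60.4 ± 23.1 and 11.6 TPM. These rises were thus no longer seen in the means at 3 h, where the log2 fold changes against 0 h were -0.27 and 0.06.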

How the data were processed

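RNA of root and leaf was sequenced, and the authors deposited TPM per gene in a table for each tissue, with 18 root libraries. Their methods name STAR and StringTie and state that reads of maize needed no trimming, with Trimmomatic used for sorghum. The submitters' processing notes list Trimmomatic, so the sources differ on trimming. The authors tested counts with DESeq2, whereas only TPM was used here. Values were taken as log2(TPM + 1), which understates changes of low genes. All 18 root libraries entered 1 limma 3.58.1 fit (R 4.3.3) with 6 time points as groups and a trend of variance with mean. All tests were two-sided, and p-values were adjusted by Benjamini-Hochberg for the 24604 genes. Sharing the spread was chosen because 6 libraries alone leave 4 residual degrees of freedom. P-values measure the spread between these libraries, since the labels do not settle whether replicates were grown separately. The script was tested on simulated data.

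The genes, lists and groups were chosen with earlier results of these data known. Genes were named by rule: called genes of the network processes and uncalled ones of nitrate assimilation and N transport, up to 12 called TFs in each direction, the 20 largest described rises and falls with at least 10 TPM and no overlap, the largest of any, and up to 4 per description group. A keyword of the cytokinin group that had also matched unrelated enzymes was narrowed after the calls were seen. The alternatives were other pseudocounts, filters, scalings, library weights, priors, thresholds, a replicate block, subtraction of leaf RNA and leaving out libraries. Positions come from RefSeq genes of the NAM-5.0 assembly, matched through older identifiers for 434 of 562 listed genes. Sequences were not used here.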

Additional observations from a re-analysis of the deposited data

Results flagged for a closer look

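For 7 named root genes a fall was called on nitrate withdrawal and a rise on resupply. The interaction test in limma also called the difference, which is no further evidence. It is computed from both changes in the same fit, so opposite calls make it large. The difference, withdrawal minus resupply on the log2 scale, was -4.64 for UPM2 (adjusted p in limma 0.000372), -4.26 for the ferredoxin-4 gene Zm00001eb348290 (0.00331), -3.92 for NR2 (0.000578), -3.02 for NAC125 (4.94e-05), -2.83 for UPM1 (0.000826), -2.72 for LBD39 (Zm00001eb051620, 0.00281) and -2.59 for NIR2 (0.00551). LBD39 was named after its values were seen. The gene described as PIN-LIKES 7 (Zm00001eb320680), of a family of auxin carriers, moved in opposite directions in the tissues. It had 4.03, 10.6 and 12.2 TPM in root at 0.5 h, against 2.07, 2.15 and 2.12 TPM at 0 h, and 18.8, 18.9 and 17.2 TPM in leaf at 0.5 h, against 41.3, 41.2 and 35.6 TPM at 0 h. The leaf means differed by -1.06 on the log2(TPM + 1) scale. The difference between the tissues was not tested, as their tables were analysed separately.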

How the results depend on the processing

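The count of 757 called genes became 320 with a pseudocount of 5, 4 when treat required a fold change beyond 1 on the log2 scale, and 3823 by the adjusted p-value alone (1526 higher and 2297 lower). With a pseudocount of 5 the called members of all lists went to 32 of 61, of the TFs to 27 of 53, of nitrate assimilation to 3 of 5, and the called differences between the intervals to 499 of 1256. Leaving out each library in turn gave 535 to 865 calls, 47 to 68 called list members, 42 to 60 called TFs, 3 to 5 called assimilation genes (3 without 0.5 h replicate 3) and 977 to 1391 called differences. The alternatives that leave out the 24 h and 24.5 h libraries or subtract leaf RNA were chosen after seeing the data. Replicate numbers did not pair the libraries, as deviations from the group means correlated at -0.17, -0.05 and -0.15 over the 3 numbers. With the replicate number as a block 746 genes were called, 60 list members, 53 TFs, 5 assimilation genes and 1219 differences. Over 147 named genes and 19 alternatives, which do not include treat or the adjusted p-value alone, there were 2761 values. In 2642 the call and direction held, in 118 the call was lost, in 1 it was gained, and in 0 the direction reversed. Of 125 called named genes 74 were called in each of these alternatives. Of the 125, 19 lost the call in at least 1 leave-out fit and 41 with a pseudocount of 5. TPM gives no depth, so the error of low values such as those of MYB76 or ClpB2 is not known.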
